A study of Mus musculus with 18 samples.

Results

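The genes described here are those of the adaptors that carry the signal of Toll-like receptors (TLRs) into the cell and of the kinases that work with them. They are the adaptors Myd88, Tirap, Ticam1 and Ticam2, the interleukin 1 receptor associated kinases Irak1, Irak2, Irak3 and Irak4, the ubiquitin ligase Traf6 and the adaptor protein Tollip. They were chosen by annotated gene symbol, and for 8 of the 10 the annotation used lists a probe set under that symbol alone. Those 8 genes have 18 of the 45101 probe sets of the array, and 17 of the 18 passed a filter on dim probe sets, as did 25775 probe sets for 11721 named genes in all. Irak4 and Ticam2 are not analysed here. The series profiled mouse immune cells on 18 Affymetrix arrays, with 6 arrays at 0 h as controls and 6 each at 1 h and 4 h after a cell wall extract, whose source the labels do not name. Knockout mice are mentioned in the design text, yet genotype, strain, age and cell type are given for none of the samples. Comparisons are therefore by time alone, and each group may mix genotypes. Whether the 6 arrays of a time are separate animals or cultures is not stated, so p-values reflect only the variation among these arrays, possibly technical.

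TLRs and the receptors of the interleukin 1 family signal through a shared cytoplasmic module, the TIR domain. On ligand binding the domain recruits the adaptor Myd88, with Tirap as a bridge at TLR2 and TLR4, and Myd88 then assembles Irak4 with Irak1 or Irak2. These kinases engage Traf6, whose ubiquitin chains activate the kinases upstream of NF-kB and the MAP kinases. Ticam1, also called TRIF, serves TLR3 directly and TLR4 through Ticam2, and leads to interferon regulatory factors as well as NF-kB. Irak3, also called IRAK-M, is a kinase homologue that restrains the pathway in macrophages, and Tollip, which binds Irak1, is known as a further restraint.

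By their markers the samples were rich in macrophage transcripts. All 14 macrophage markers passed the filter, and their summed signal on single arrays lay between 240903 and 312744. For other cell types fewer passed, with 7 of 12 neutrophil markers, 6 of 8 stromal, 3 of 10 T cell, 3 of 10 dendritic cell, 3 of 8 B cell, 2 of 8 erythroid and 1 of 8 NK cell markers. The titles carry array codes whose meaning is not given. By number they form 3 ranges, from 12 to 22, from 32 to 37 and from 44 to 54, and each time has 2 arrays in each of them. For 18 of 18 arrays the array of another time with the best correlated residuals lay in the same range. One array stood apart from its label: on the 1 h array with code 14 (replicate 6) the median of 9 genes of IkB proteins and NF-kB subunits lay 0.00 log2 units from the 0 h mean, against 1.16 to 1.89 on the other 1 h arrays. Counts at 1 h are given with and without it, while of the genes described here Irak2 alone has its value given both ways. The median log2 fold change of all tested probe sets was -0.22 at 4 h and -0.04 at 1 h against 0 h. A scaling of the arrays to equal medians put the 4 h value at 0.04. Changes of the genes described here at 4 h against 0 h are therefore also given relative to the median.

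Upstream sequences of 4 of the genes are shown because the results below turn on them: Irak3 and Irak2, which rose, Irak1, whose brightest probe set fell, and Myd88, the shared adaptor. Each is the 250 bases before a RefSeq transcript start of the assembly GRCm38.p6, printed along the gene's own strand. Irak3 and Irak1 each have a pair of listed starts, and for Irak1 start 1 alone is printed. Capitals mark matches to any of 3 motifs searched on both strands: the NF-kB consensus, the core of the interferon stimulated response element and the AP-1 site (TGANTCA).
Irak3, start 1, chr10:120201598-120201847, minus strand: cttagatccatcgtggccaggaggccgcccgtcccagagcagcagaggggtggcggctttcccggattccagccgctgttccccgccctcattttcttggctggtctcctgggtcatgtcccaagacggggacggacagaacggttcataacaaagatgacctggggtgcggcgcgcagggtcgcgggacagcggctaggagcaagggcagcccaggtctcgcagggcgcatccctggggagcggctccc
Irak3, start 2, chr10:120202131-120202380, minus strand: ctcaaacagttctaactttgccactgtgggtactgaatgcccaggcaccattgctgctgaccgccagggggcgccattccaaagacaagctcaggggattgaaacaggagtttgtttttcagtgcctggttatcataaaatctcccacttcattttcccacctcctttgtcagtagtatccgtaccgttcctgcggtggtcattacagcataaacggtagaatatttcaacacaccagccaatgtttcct
Irak2, chr6:113638217-113638466, plus strand: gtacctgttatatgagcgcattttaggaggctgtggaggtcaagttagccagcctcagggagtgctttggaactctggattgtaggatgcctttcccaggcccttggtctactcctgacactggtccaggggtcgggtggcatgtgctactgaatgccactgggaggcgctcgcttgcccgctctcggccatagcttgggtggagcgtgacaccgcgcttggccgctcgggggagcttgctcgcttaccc
Irak1, chrX:74023922-74024171, minus strand: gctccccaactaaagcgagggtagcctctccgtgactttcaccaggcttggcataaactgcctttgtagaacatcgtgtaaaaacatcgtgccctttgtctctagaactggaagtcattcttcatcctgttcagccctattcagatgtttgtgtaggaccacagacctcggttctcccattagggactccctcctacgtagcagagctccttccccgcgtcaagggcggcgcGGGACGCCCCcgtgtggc
Myd88, chr9:119340019-119340268, minus strand: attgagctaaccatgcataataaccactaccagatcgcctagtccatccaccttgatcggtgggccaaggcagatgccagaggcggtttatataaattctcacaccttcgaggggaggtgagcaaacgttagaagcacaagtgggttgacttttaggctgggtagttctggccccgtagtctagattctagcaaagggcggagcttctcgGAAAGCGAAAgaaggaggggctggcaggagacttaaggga
In Myd88 the capitals are the interferon response core, from base -40 to base -31, counted back from the start. In Irak1 they are an NF-kB consensus match, from base -18 to base -9, which reads as a match on both strands. Counted from start 2 of Irak1, the same letters lie from base -21 to base -12. Of 32851 such windows in the mouse, 7.25% hold the NF-kB consensus, 2.98% the interferon response core and 6.75% the AP-1 site, with no overlap between motifs in the windows shown. The Irak2 and Irak3 windows hold none of these letters. A match describes the letters of the window alone.

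The main change came by 4 h. Of the 8 measured genes 5 rose (Irak3, Irak2, Ticam1, Tollip and Myd88), 2 fell (Irak1 and Tirap) and Traf6 did not pass, by limma at an adjusted p of 0.05 over all 25775 tested probe sets. Over all probe sets 33.1% passed in that comparison, 9.95% upward and 23.1% downward, so the 2 falls stood at about the share of all probe sets. The same 7 genes passed once the code range entered as a block, where 42.9% of all probe sets did. The median log2 fold change was 1.00 over the 8 genes, beside -0.22 over all probe sets. Relative to that median of all probe sets, Irak2 stood at 1.80, Ticam1 and Tollip at 1.24 each, Myd88 at 1.19 and Traf6 at 0.34. The values of Irak3, Irak1 and Tirap are given below. For the 5 genes that rose, every array at 4 h lay above every array at 0 h, a pattern that 5.59% of all probe sets share. The separation and the calls rest on the same values, so it is no further support for them. The genes were chosen with earlier results of these data known, so these counts are a description. In bulk samples a change in RNA per cell and a change in the share of a cell type cannot be told apart.

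**Figure D1:**
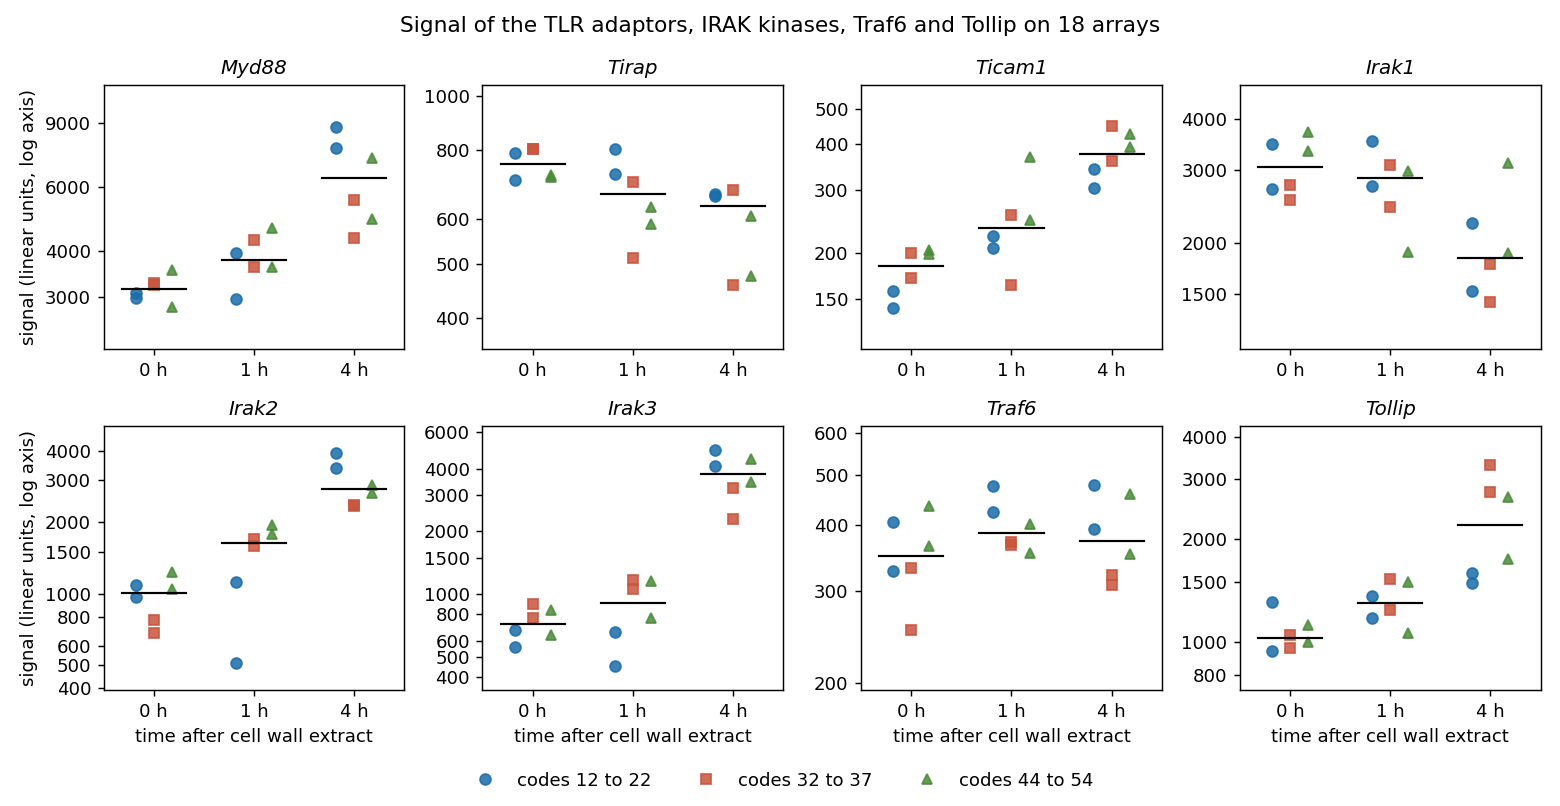
Probe set signal (y axis, linear units on a log axis that differs between panels) at 0 h, 1 h and 4 h after the cell wall extract (x axis) for the brightest probe set of 8 genes. Each point is an array, its shape and colour give the range of array codes, and the bar is the median of 6 arrays. Irak3 at 4 h lay between 2286 and 4936, above the highest value of 899.6 at 0 h, while Traf6 overlapped at all times.

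Among the kinases Irak3, the restraining homologue, had the largest fold change of the 8 genes. Its brightest probe set had a signal from 555.9 to 899.6 at 0 h with a median of 719.3. At 1 h it ran from 452.3 to 1174 (median 912.3) and at 4 h from 2286 to 4936 (median 3780). The 4 h arrays overlapped with neither earlier time, while 0 h and 1 h overlapped. Against 0 h, Irak3 was 4.97-fold higher at 4 h, a log2 fold change of 2.31 ± 0.23 (SE, n = 6 arrays a time; limma, adjusted p = 1.10e-06), or 2.53 above the median of all probe sets. Most of this rise fell in the later interval, with 2.11 ± 0.23 between 1 h and 4 h (limma, adjusted p = 4.80e-06) and 0.21 ± 0.23 in the first hour (adjusted p = 1.00). A further, dimmer probe set of Irak3 ran from 194.3 to 541.9 at 0 h, from 111.1 to 459.4 at 1 h and from 138.1 to 1393 at 4 h. On 1 array at 4 h it lay below every 0 h array and on the other 5 above. Its log2 fold change of 1.00 ± 0.43 at 4 h did not pass (limma, adjusted p = 0.0803), while 1.34 ± 0.43 between 1 h and 4 h did (adjusted p = 0.0284).

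Irak2, a kinase homologue that sustains signalling through Traf6, was the other IRAK gene that rose. Its signal was 683.7 to 1236 at 0 h (median 1007), 512.1 to 1950 at 1 h (median 1639) and 2336 to 3907 at 4 h (median 2761). All arrays at 4 h lay above all earlier arrays. The fold at 4 h against 0 h was 2.99, with a log2 fold change of 1.58 ± 0.27 (limma, adjusted p = 0.000204). Between 1 h and 4 h it was 1.11 ± 0.27 (adjusted p = 0.00521), a call kept in the range 12 to 22 and lost in the other ranges of array codes, as given below. At 1 h, 4 of 6 arrays lay above every 0 h array, and the array with code 14, at 512.1, lay below every one. The log2 fold change at 1 h was 0.47 ± 0.27 (limma, adjusted p = 0.877), and 0.74 without that array (adjusted p = 0.0599). The array was set apart by these same data, so the value without it is no independent result.

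Irak1, the kinase first recruited with Irak4 and degraded as signalling proceeds in many cell types, ran the other way by its brightest probe set. That probe set had signals of 2538 to 3712 at 0 h (median 3048), 1898 to 3528 at 1 h (median 2863) and 1435 to 3119 at 4 h (median 1833). At 4 h, 5 of 6 arrays lay below every 0 h array, and the exception was the array with code 49 at 3119. Irak1 fell by 0.66 ± 0.19 on the log2 scale at 4 h against 0 h (limma, adjusted p = 0.0114), or by 0.44 relative to the median of all probe sets. With the arrays scaled to equal medians this value was -0.41 and did not pass (limma, adjusted p = 0.110). Its 3 other probe sets had log2 fold changes of -0.10, -0.22 and -0.42 at 4 h, and none passed (limma, adjusted p from 0.0774 to 0.664). The last of these did pass once the code range entered as a block (adjusted p = 0.00914). The brightest probe set carries the suffix _x_at, which Affymetrix gives to probe sets that may also bind other transcripts. Against 1 h its change at 4 h was -0.50 ± 0.19 (limma, adjusted p = 0.0609), which passed under 6 alternatives, among them the block of code ranges (adjusted p = 0.0422) and the fits without t1h replicate 1 (adjusted p = 0.0253) or t4h replicate 1 (adjusted p = 0.0118). In the range 44 to 54 the value was 0.03 (adjusted p = 0.970).

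**Figure D2:**
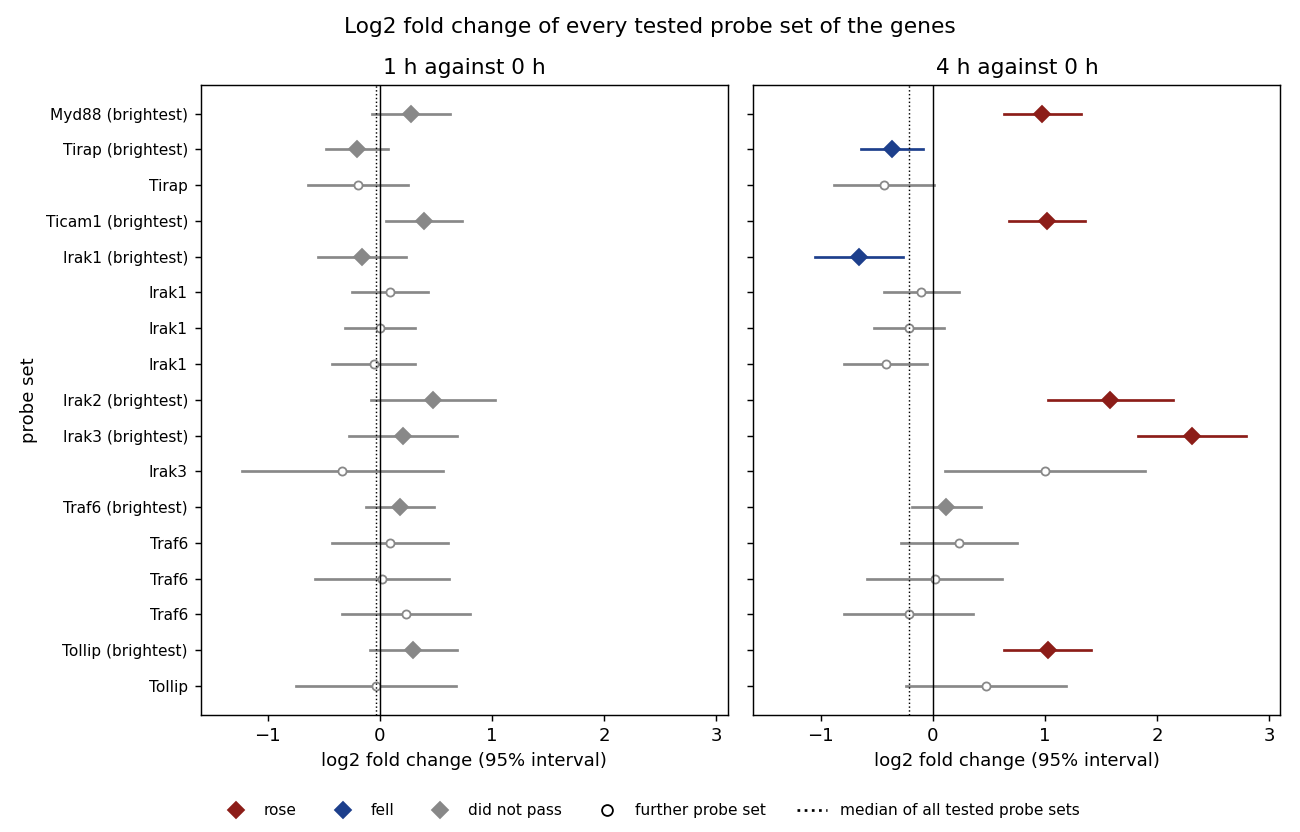
Log2 fold change with its 95% interval (x axis) of the 17 tested probe sets of the 8 genes (y axis), at 1 h and at 4 h against 0 h. Diamonds are the brightest probe set of a gene, circles its further probe sets, colour marks the limma call, and the dotted line is the median of all tested probe sets. At 4 h the brightest probe sets of Irak3 (2.31) and Irak2 (1.58) lie farthest to the right, and at 1 h no probe set passed.

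Of the adaptors, Myd88 and Ticam1 rose about equally in log2 terms, while Tirap did not rise. Myd88, the adaptor of nearly all TLRs and of the interleukin 1 receptors, had signals of 2802 to 3543 at 0 h (median 3156). At 1 h they ran from 2962 to 4628 (median 3787) and at 4 h from 4341 to 8779 (median 6352). It was 1.97-fold higher at 4 h than at 0 h, a log2 fold change of 0.98 ± 0.16 (limma, adjusted p = 0.000208). Between 1 h and 4 h the value was 0.70 ± 0.16 (adjusted p = 0.00445), although 1 of the 6 arrays at 4 h lay within the 1 h values. At 1 h, 5 of 6 arrays lay above all 0 h arrays, the exception being that of code 14, but 0.27 ± 0.16 did not pass (adjusted p = 0.925).

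Ticam1 was a dim gene with a clear separation by 4 h. It has a single probe set, so no further probe set bears on this rise. Its signal was 141.4 to 204.0 at 0 h (median 184.6), 163.5 to 368.5 at 1 h (median 235.2) and 303.8 to 449.2 at 4 h (median 376.3). Here too 5 of the 6 arrays at 1 h stood above the 0 h values. The rise at 4 h against 0 h was 2.03-fold, or 1.02 ± 0.16 in log2 (limma, adjusted p = 0.000116), and 0.63 ± 0.16 against 1 h (adjusted p = 0.00800). At 1 h the log2 fold change of 0.39 ± 0.16 had an unadjusted p of 0.0266 and an adjusted p of 0.584 by limma. Since 16 was added to each signal before the log, fold changes of dim genes are understated.

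Tirap, the bridging adaptor of TLR2 and TLR4, had signals of 705.1 to 803.8 at 0 h (median 754.4), 512.1 to 802.1 at 1 h (median 664.9) and 456.7 to 677.2 at 4 h (median 633.8). All 6 arrays at 4 h lay below all at 0 h, as they did for 11.3% of all probe sets. It fell by 0.36 ± 0.13 on the log2 scale (limma, adjusted p = 0.0420), or by 0.15 relative to the median of all probe sets. This call was lost with equal medians (-0.11, limma, adjusted p = 0.686), with quantile normalization (-0.22, adjusted p = 0.239) and without the filter on dim probe sets (adjusted p = 0.104). It was also lost when any single 0 h array or t4h replicate 1, 2 or 3 was left out, with adjusted p from 0.0511 to 0.0960. The dimmer probe set of Tirap, at 85.28 to 185.6 at 4 h and 137.0 to 217.0 at 0 h, had a log2 fold change of -0.43 ± 0.21 (limma, adjusted p = 0.128).

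Traf6, the ubiquitin ligase below the kinases, showed no change that passed. Its brightest probe set had signals of 251.9 to 436.0 at 0 h (median 349.2), 354.4 to 475.2 at 1 h (median 386.9) and 308.2 to 477.4 at 4 h (median 373.5). The values of all 3 times overlapped. The log2 fold change at 4 h against 0 h was 0.12 ± 0.14 with a 95% interval from -0.18 to 0.43 (limma, adjusted p = 0.553), and at 1 h 0.18 ± 0.14 (adjusted p = 1.00). Its other 3 tested probe sets had values between -0.22 and 0.23 at 4 h. The remaining probe set of Traf6 lay below the median of its array on all 18 arrays and was not tested.

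Tollip had signals of 937.2 to 1308 at 0 h (median 1023), 1061 to 1527 at 1 h (median 1297) and 1487 to 3318 at 4 h (median 2205). The 4 h values stood above all 0 h values, and 5 of 6 stood above all 1 h values. Its rise at 4 h against 0 h was 2.03-fold, or 1.02 ± 0.19 in log2 (limma, adjusted p = 0.000401), of which 0.73 ± 0.19 came after 1 h (adjusted p = 0.00795). A dimmer probe set of Tollip changed by 0.47 ± 0.34 (limma, adjusted p = 0.305).

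At 1 h none of the 8 genes passed, in a comparison in which 0.753% of all probe sets did (194 probe sets, 0.613% upward). The code range as a block raised that share to 1.32% and still left none of the 8 past the threshold. By unadjusted p, 1 of the 8, Ticam1, lay under 0.05. Their adjusted p in the limma fit ran from 0.584 for Ticam1 upward. Without the array of code 14, 418 probe sets passed and still none of the 8 genes, with Irak2 lowest at adjusted p = 0.0599. Leaving out t1h replicate 1, 2, 3 or 4 gave 118, 108, 125 and 119 probe sets. Between 1 h and 4 h, 5 of the 8 rose and none fell, where 24.4% of all probe sets passed, 7.71% upward and 16.7% downward. With the block Irak1 joined them as a fall, beside 34% of all probe sets called. For Irak2 and Irak3 the 4 h and 1 h arrays did not overlap, a separation upward that 3.63% of all probe sets share, beside 6.76% downward.

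Within the ranges of array codes the fold changes at 4 h varied for some of the genes, but no test of a difference in fold change between ranges passed. For Irak3 the log2 fold changes at 4 h against 0 h were 2.85, 1.69 and 2.40 (each ± 0.27) in the ranges 12 to 22, 32 to 37 and 44 to 54. Each compares 2 arrays with 2, and its SE comes from the spread pooled over all 18 arrays in a fit with a mean per time and range. Those of Myd88 were 1.43, 0.59 and 0.91 (each ± 0.24) in the same order. For Irak2 they were 1.81, 1.67 and 1.27 (± 0.28). Tollip ran the other way between the lowest ranges, with 0.47, 1.58 and 1.02 (± 0.25). On single arrays Tollip at 4 h stood at 1593 and 1487 in the range 12 to 22, at 2758 and 3318 in 32 to 37, and at 2661 and 1749 in 44 to 54. Ticam1 was the most even, at 1.03, 1.06 and 0.97 (± 0.23). The limma test of a difference between ranges gave adjusted p = 0.388 for Tollip, 0.418 for Irak3, 0.560 for Myd88, 0.862 for Irak2 and 0.996 for Ticam1, in a test that called 0.838% of all probe sets. The unadjusted p was 0.0282 for Tollip and 0.0340 for Irak3.

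At 1 h the Irak2 values were -0.43, 1.15 and 0.70 (± 0.28) in the ranges 12 to 22, 32 to 37 and 44 to 54. The range 12 to 22 holds the array of code 14, and its other 1 h array had 1115 against 1093 and 965.5 on the 0 h arrays of that range. The limma test of the difference between ranges at 1 h had an unadjusted p of 0.00474 and an adjusted p of 1.00, and it called 0% of all probe sets, with 0 of 25775. 

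Between 1 h and 4 h the same kind of test called 1.25% of all probe sets and none of the 8 genes. Irak2 was nearest, with log2 fold changes of 2.24, 0.52 and 0.56 (± 0.28) in the ranges 12 to 22, 32 to 37 and 44 to 54 (limma, adjusted p = 0.000212, 0.282 and 0.233), and the test between ranges gave an unadjusted p of 0.00116 and an adjusted p of 0.0706. Its 1 h arrays in the range 12 to 22 are those described above, code 14 among them. Irak3 passed in all 3 ranges, with 3.004, 1.274 and 2.043 (± 0.27). Myd88 passed in the range 12 to 22 alone (1.26, 0.31 and 0.54). Ticam1 (0.55, 0.92 and 0.42) and Tollip (0.28, 1.13 and 0.77) passed in the range 32 to 37 alone. For Irak1 the values were -0.75, -0.77 and 0.03 (± 0.30), and none passed.

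**Figure D3:**
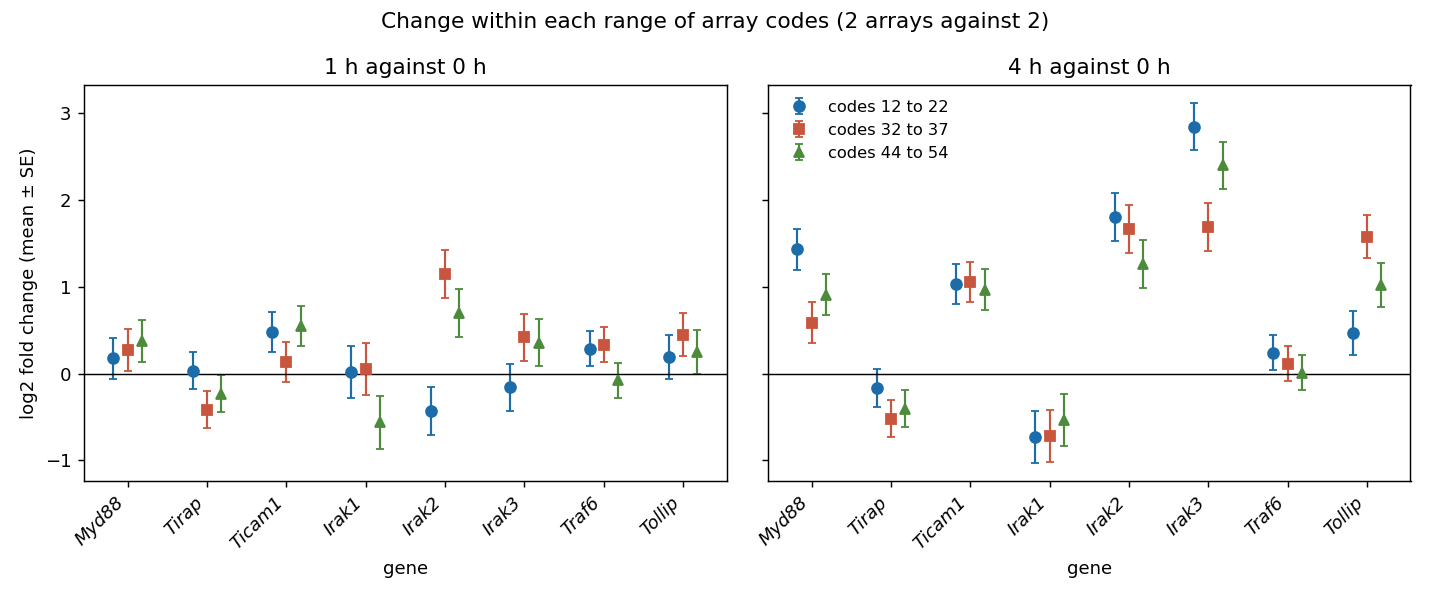
Log2 fold change with its standard error, pooled over all arrays (y axis), for the 8 genes (x axis) within each range of array codes, at 1 h and at 4 h against 0 h, 2 arrays against 2 for each point. At 4 h Irak3 and Myd88 have their highest point in the range 12 to 22 (2.85 and 1.43) and Tollip its lowest (0.47), while the points of Ticam1 lie together.

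In level, averaged over times, none of the 8 brightest probe sets passed limma's F test between ranges, which called 30% of all probe sets. A further probe set each of Irak1 (adjusted p = 0.0071) and Traf6 (adjusted p = 0.0267) did. The nearest were Traf6 (adjusted p = 0.0601) and Ticam1 (adjusted p = 0.0745). Traf6 had a mean log2 value of 8.40 in the range 32 to 37 against 8.75 in 12 to 22, a difference of -0.34 ± 0.11. Ticam1 stood at 8.27 in 44 to 54 against 7.87 in 12 to 22, a difference of 0.40 ± 0.13. As single pairwise contrasts both differences passed (limma, adjusted p = 0.0462 for Traf6 and 0.0438 for Ticam1), although the F test over all ranges did not. Traf6 passed the F test without t0 replicate 5 (adjusted p = 0.0452) or t1h replicate 1 (0.0481), and Ticam1 without t1h replicate 4 (0.0269). Stromal markers moved with the ranges: the summed signal of 6 of 8 markers was 876.5 to 1450 on arrays of the range 12 to 22, 2443 to 4558 in 32 to 37 and 9668 to 14018 in 44 to 54. The 7 neutrophil markers ran from 3818 to 6429, from 1859 to 4100 and from 1222 to 2646 in the same order. The 3 B cell markers ran from 771.8 to 1844, from 301.6 to 579.9 and from 183.2 to 422.2. By the F test, 6 of 6 stromal, 5 of 7 neutrophil, 2 of 3 B cell, 6 of 14 macrophage, 1 of 3 T cell and 1 of 3 dendritic cell markers differed between ranges, and none of the NK cell and erythroid markers passed. Their part in the values of the 8 genes was not tested.

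Around these genes, the rest of the pathway was described from lists, whose counts at 4 h stand beside 9.95% of all probe sets that rose and 23.1% that fell. Of 18 TLRs and co-receptors that passed the filter, 4 rose and 4 fell at 4 h against 0 h by limma, the falls at about the share of all probe sets, with a median log2 fold change of -0.10. Tlr1 (2.46 ± 0.40) and Tlr2 (2.09 ± 0.32), partners in the sensing of lipoproteins, rose, while Tlr8 (-2.34 ± 0.42), an endosomal receptor, fell. Of 5 interleukin 1 family receptors and other TIR proteins, Pik3ap1 (1.24 ± 0.32), a link to PI3 kinase, rose. Sigirr (-0.78 ± 0.24), an inhibitory receptor, and Il18rap (-0.70 ± 0.25), a chain of the interleukin 18 receptor, fell, but neither passed with quantile normalization or equal medians, where 0 of the 5 fell. Downstream, of 12 genes listed for ubiquitin enzymes, the TAK1 and IKK complexes and proteins that work with them, 5 rose and 3 fell. Map3k8 (1.98 ± 0.37), a kinase that activates the ERK pathway, rose, and Peli2 (-1.81 ± 0.16), a ligase that modifies IRAK proteins, and Tab1 (-1.21 ± 0.20), a partner of TAK1, fell.

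Of 6 genes of the arm below Ticam1, 4 rose and none fell, with Ikbke (2.74 ± 0.43), a kinase of interferon regulatory factors, Tank (2.46 ± 0.29) and Azi2 (0.83 ± 0.13), scaffolds of that kinase family. Of 10 inhibitors, 5 rose and 2 fell, led by Socs3 (4.86 ± 0.43), Tnfaip3 (4.67 ± 0.48) and Zc3h12a (3.03 ± 0.34). Of 9 IkB proteins and NF-kB subunits, 8 rose, led by Nfkb2 (2.92 ± 0.33), Nfkbiz (2.87 ± 0.48) and Nfkbie (2.83 ± 0.46). At 1 h against 0 h, 3 of the 10 inhibitors and 4 of the 9 IkB and NF-kB genes rose, beside 0.613% of all probe sets. None in the other 4 lists passed in the main fit. Those that rose were Tnfaip3, Socs3, Zc3h12a, Nfkbia, Nfkbie, Nfkbid and Nfkbiz. Without the array of code 14, Tlr2 (1.54 ± 0.26), Map3k8 (limma, adjusted p = 0.0257), Tnip1 (1.15 ± 0.23), Nfkbib (0.84 ± 0.20) and Relb (1.45 ± 0.28) passed as well. In that fit 418 probe sets passed in all. That array was set apart by these same data, so the passing of these genes without it is no independent result. Nfkbib and Relb also belong to the list by which it was set apart. With the code range as a block, Tlr2 (limma, adjusted p = 0.0324) and Relb (adjusted p = 0.0408) joined the genes that rose in the main fit, beside 1.32% of all probe sets called.

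**Figure D4:**
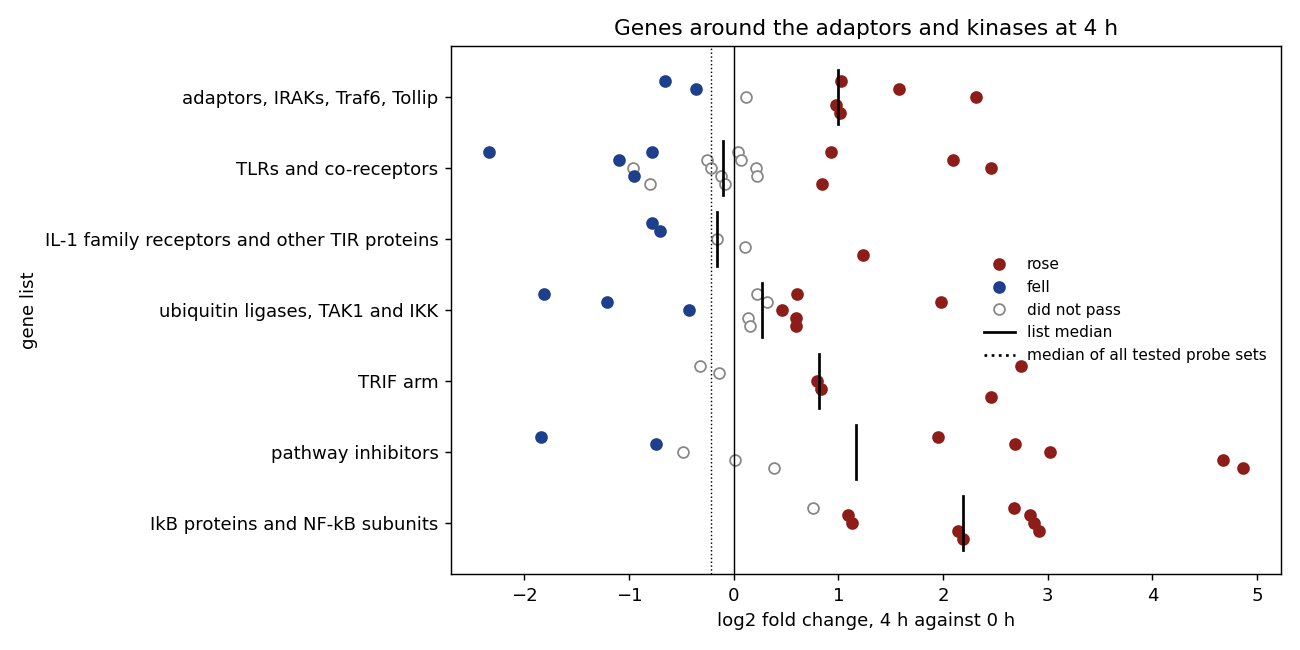
Log2 fold change at 4 h against 0 h (x axis) of single genes, by list (y axis), with the 8 genes of the adaptors, IRAKs, Traf6 and Tollip at the top. Filled points passed the limma threshold, bars are list medians, and the dotted line is the median of all tested probe sets. The IkB and NF-kB list has the highest median, at 2.19, beside 1.00 for the adaptors and kinases and -0.10 for the TLRs and co-receptors.

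The genes whose time course lay closest were found by the root mean square difference of log2 profiles over the 18 arrays, each profile less its own 0 h mean, among 11721 genes. Irak3 was nearest to Jak2, a cytokine receptor kinase (0.22), Gdap10 (0.29) and Parp14 (0.31), beside a median of 1.56 over all genes. Irak2 was nearest to Sgms1, a sphingomyelin synthase (0.31), Cybb, a subunit of the NADPH oxidase (0.34), and Rffl (0.34). Myd88 was nearest to Marcks, Prkcd and Bcl10 (0.18 each). Ticam1 lay closest to Siah2 (0.19), Etf1 (0.21) and Ube2z (0.22), and Tollip to Ube2z (0.19), Prkx (0.22) and Gna13 (0.22). For Irak1 the nearest were Akap8, Zbtb24 (0.24 each) and Fbxo25 (0.25), and for Tirap Lamp2 (0.11), Fam32a (0.13) and Txndc12 (0.14). A distance depends on the size of the change, so distances of different genes are not compared.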

How the data were processed

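Total RNA of 18 samples was hybridised to Affymetrix arrays, 6 each at 0 h, 1 h and 4 h. The deposited values are probe set intensities on a linear scale. Per the submitters' processing notes they were made with MAS5 and GCOS, with no version or setting named. The trimmed mean was 500 on all arrays. Samples were grouped by the time in their titles, and the array codes there gave the ranges.

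The platform annotation gave gene names, 34958 of 45101 with a single symbol, of which 34754 matched the RefSeq gene table by gene identifier. Values were taken as log2(signal + 16), without further normalization. Dim probe sets and controls were left out by requiring a value over the array's own median on at least 4 arrays. R 4.3.3 and limma 3.58.1 (lmFit, eBayes) estimated 1 mean for each time from the 18 arrays, and p-values were adjusted over all kept probe sets by Benjamini-Hochberg at 0.05. Ranges were tested with time as a factor, and their responses with a mean per time and range. The fit was tested on simulated data with independent noise on each array and 50 probe sets raised at 4 h by each of 4 folds. At 4 h against 0 h it recovered 18% of 1.5-fold, 52% of 2-fold, 86% of 4-fold and 100% of 8-fold rises. Differences between code ranges were not part of that simulation. Where a gene had several tested probe sets the brightest stood for it. "Rose" and "fell" refer to the threshold. The genes, the lists and the tests were chosen with earlier results of these data known. The named genes were the 10 of the set, for each that passed at 4 h the 3 genes with the closest profile, and for each pathway list up to 3 that passed with the largest change at 4 h. Sequences are from RefSeq tables (GRCm38.p6). Alternatives were other added constants, filters, scalings and variance models, the code range as a block, each range alone, the next brightest probe set, and leaving out each array in turn.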

Additional observations from a re-analysis of the deposited data

How the results depend on the processing

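Under 29 or 30 alternatives for each gene at 4 h against 0 h, no called value changed sign. Irak2, Ticam1 and Myd88 have a single tested probe set, so the next brightest probe set could not be tried for them. The calls of Irak2 and Ticam1 passed in all alternatives that were run for them. Those of Irak3 and Myd88 were lost in 1 each, namely the dimmer probe set of Irak3 (1.00) and the range 32 to 37 for Myd88 (0.59). That of Tollip was lost in 2, the dimmer probe set (0.47) and the range 12 to 22 (0.47), that of Irak1 in 5 and that of Tirap in 16. The number of genes called among the 8 at 4 h was 7 and lay between 6 and 7 without single arrays. At 4 h against 1 h it was 5, and 5 to 6 without single arrays, and at 1 h against 0 h it was 0 throughout. The contrasts within a range compare 2 arrays with 2 in 1 fit over all 18 arrays. At 4 h against 0 h they called 5262 (codes 12 to 22), 3909 (32 to 37) and 4742 (44 to 54) probe sets, in place of 8530, and at 4 h against 1 h 4708, 2441 and 2917 in place of 6285. Of the 8 genes they called 4, 4 and 5 at 4 h against 0 h, and 3, 3 and 1 at 4 h against 1 h. At 1 h against 0 h they called 0, 187 and 152 probe sets in place of 194, and a block of code ranges gave 339. The cause was not tested. Without single arrays the counts ran from 7487 to 8724 at 4 h against 0 h, from 108 to 418 at 1 h against 0 h and from 5447 to 6381 at 4 h against 1 h. The F test between ranges called 6643 to 7904 probe sets without single arrays and 0 to 1 of the 8 genes. It called 1 of the 8, Traf6, with the stricter filter (adjusted p = 0.0465) and with quantile normalization (adjusted p = 0.0437). Rises made up 30.1% of the calls at 4 h against 0 h, 45.1% with quantile normalization and 61.1% with equal medians, and at 4 h against 1 h 31.6%, 47.1% and 64.6%. The 5 rises at 4 h against 0 h passed under both scalings, Irak1 under quantile normalization alone. Single arrays were not paired across times, since the labels give no replicate numbers and no meaning of the array codes. The replicate numbers used here are names that tell the arrays of a time apart, and an equal number links no arrays across times. The code range as a block kept the 7 calls at 4 h against 0 h. The small number of arrays limits what changes could be seen.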

Other observations

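Of the 14 macrophage markers, 2 rose and 2 fell at 4 h against 0 h by limma, beside 9.95% of all probe sets upward and 23.1% downward. Msr1, a scavenger receptor, rose by 1.82 ± 0.28 in log2 and Cd14, a co-receptor of TLR4, by 0.84 ± 0.26. Mertk, a receptor for apoptotic cells, fell by 2.70 ± 0.34, and Cd163, a haemoglobin scavenger receptor, by 1.01 ± 0.23 (limma, adjusted p from 1.24e-05 to 0.0190). The other 10 did not pass. The summed macrophage signal ran from 240903 to 285895 at 4 h and from 244272 to 286466 at 0 h. Among the markers of other cell types, Csf3r, the receptor for granulocyte colony stimulating factor (1.40 ± 0.25), and the integrin gene Itgax (1.66 ± 0.27) rose, and the costimulatory receptor gene Cd28 (-1.56 ± 0.41) and Cd79b (-1.44 ± 0.46), of the B cell receptor, fell. Cd79b did not pass with equal medians or quantile normalization. Of the 6 stromal, 2 erythroid and 1 NK cell markers tested, none passed at 4 h by limma. With the code range as a block, 42.9% of all probe sets passed at 4 h against 0 h in either direction. Among the markers the block gave 1 fall of 6 stromal and 3 rises and 1 fall of 7 neutrophil markers. It gave 2 falls of 3 B cell and 2 rises and 3 falls of 14 macrophage markers. It left the counts of the other marker lists as they were.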
